A study of Mus musculus with 30 samples.

Results

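The genes that encode the subunits of the mitochondrial respiratory chain and of the ATP synthase were followed through angiotensin II infusion in 4 mouse tissues. They were chosen by symbol alone: every gene whose symbol starts with Ndufa, Ndufb, Ndufc, Ndufs, Ndufv, Sdha, Sdhb, Sdhc, Sdhd, Uqcr, Cox4, Cox5, Cox6, Cox7, Cox8 or Atp5, with the probe set of the highest mean signal standing for the gene. This rule took 94 of the 18193 genes on the array. By symbol, 34 belong to complex I, 4 to complex II, 8 to complex III, 19 to complex IV and 17 to the ATP synthase, also called complex V. The other 12 carry Ndufaf or Sdhaf symbols and encode assembly factors of complexes I and II, which help build a complex without being part of it. They are described apart from the 82 subunits. Ndufa4 and its relative Ndufa4l2 were counted with complex IV, where the Ndufa4 protein is found.

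Complex I takes electrons from NADH and complex II takes them from succinate. Complex III passes them to cytochrome c, complex IV passes them on to oxygen, and complexes I, III and IV pump protons that drive the ATP synthase. Heart muscle depends on this chain for nearly all of its ATP and is packed with mitochondria, and it uses muscle forms of several complex IV subunits in place of the forms found in most tissues.

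The mice were C57BL/6 males, 8 to 10 weeks old. Treated mice carried an osmotic pump that delivered angiotensin II, a peptide hormone that raises blood pressure, at 1500 ng/kg/min for 1, 3 or 7 days, while day 0 mice received no angiotensin II. The labels do not say whether day 0 mice carried a pump, or whether organs were taken from the same mice. Whole-organ RNA was read on 30 Affymetrix mouse 430 2.0 arrays: 3 for each of 4 days (0, 1, 3 and 7) in heart, 2 for each in kidney, 1 for each in vessel, and 2 for each of days 0, 3 and 7 in brain.

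Arrays of a group in heart, kidney and brain correlated at 0.973 to 0.996 over all probe sets other than controls. All array medians lay between 35.2 and 37.8 intensity units. All 10 cardiomyocyte markers lay above the 40th percentile of every heart array. The vessel arrays held smooth muscle markers, with a summed intensity of 25775 to 33355 over 5 genes, and brown fat markers, with a sum of 21022 to 38986 over 4 genes. Kidney arrays differed in fat and adrenal markers, and brain arrays in neutrophil and kidney markers, as given with the results of each tissue. In whole organs, fewer cells of a type and less RNA per cell cannot be told apart.

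The subunits gave some of the brightest signals on the arrays. In untreated heart their median intensity was 7800, and 66 of 82 lay above the 99th percentile of all probe sets. No assembly factor did, and their median was 788. The highest value on any array was 22424. Of the 94 genes, 92 passed the filter on low signals in heart, kidney and vessel and 93 in brain. Cox7c, Ndufb4 and Ndufb1 were represented by dim probe sets. Ndufb4 and Ndufb1 had only 1 probe set with a single gene symbol, and that of Cox7c was the brighter of 2. In 22 of the 94 genes the chosen probe set is of a type that can match related transcripts.

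The stretch of 250 bases before the transcription start is shown for the 3 assembly factors with the largest falls at day 1 in heart and for Sdhd, the complex II subunit that fell, since the results turn on these genes. Motifs of factors known to act on nuclear genes of the respiratory chain were searched on both strands: TGCGCA, a short motif from the site of NRF1, CCGGAAG, the core of the GABPA site, and TNAAGGTCA, the site of the estrogen-related receptors. The first 2 were added after the sequences had been seen, and none of the 3 motifs contains another. A longer NRF1 site was also searched in an earlier run and is not counted here. Capitals mark matches on either strand, and sequences run 5′ to 3′ on the minus strand of GRCm38.p6 as given by RefSeq.
Sdhaf4 (chr1:24005641-24005890): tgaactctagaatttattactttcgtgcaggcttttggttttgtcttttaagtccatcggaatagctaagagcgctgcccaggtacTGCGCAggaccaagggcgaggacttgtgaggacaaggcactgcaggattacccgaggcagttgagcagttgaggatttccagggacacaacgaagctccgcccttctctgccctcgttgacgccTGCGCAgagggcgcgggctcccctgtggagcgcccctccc
Ndufaf1 (chr2:119662835-119663084): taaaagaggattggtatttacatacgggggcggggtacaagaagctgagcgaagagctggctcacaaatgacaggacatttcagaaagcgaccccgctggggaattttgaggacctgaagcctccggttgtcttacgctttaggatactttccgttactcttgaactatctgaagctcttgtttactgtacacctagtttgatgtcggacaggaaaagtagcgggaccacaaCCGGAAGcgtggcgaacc
Ndufaf3 (chr9:108567437-108567686): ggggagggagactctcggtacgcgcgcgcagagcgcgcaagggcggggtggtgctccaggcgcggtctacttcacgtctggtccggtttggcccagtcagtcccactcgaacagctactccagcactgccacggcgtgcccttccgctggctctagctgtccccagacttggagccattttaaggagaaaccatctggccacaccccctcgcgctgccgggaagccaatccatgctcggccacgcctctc
Sdhd (chr9:50603850-50604099): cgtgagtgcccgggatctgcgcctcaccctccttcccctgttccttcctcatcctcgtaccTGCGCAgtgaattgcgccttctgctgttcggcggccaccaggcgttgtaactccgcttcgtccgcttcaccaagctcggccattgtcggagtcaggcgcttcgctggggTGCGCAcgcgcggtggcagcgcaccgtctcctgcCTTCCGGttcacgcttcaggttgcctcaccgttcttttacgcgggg
Sdhaf4 held 2 short NRF1 motifs, Sdhd held 2 of these and 1 GABPA core, Ndufaf1 held 1 GABPA core, and Ndufaf3 held none of these letters. RefSeq windows were matched for 78 of the 94 genes, with 83 windows in all. The short NRF1 motif lay in 20.5% of these windows and in 6.43% of 32851 windows of all genes. The GABPA core lay in 19.3% against 6.91%, and in 4 of the 11 assembly factor windows. The estrogen-related receptor site lay in 2.41% against 1.14%, in Atp5g3 and Ndufb4. A match is a description of these letters and not a site of binding.

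After 1 day of angiotensin II, heart RNA held less signal for 21 of the 92 genes tested and more for none. Of the 12 assembly factors 10 fell, with Sdhaf4 about 2.07-fold lower, and of the 80 subunits 11 fell, none by more than Cox7a2l. The difference between these lists was not tested. By the limma test with Benjamini-Hochberg adjustment over 14040 genes, 8.57% of all genes fell at day 1 and 4.86% rose. Among genes as bright as most subunits 12.1% fell, near the share of the subunits, as given below. The median change on the scale of log2(intensity + 16) was -0.51 for the assembly factors and -0.16 for the subunits, beside -0.02 for all genes tested. Among the complexes it was -0.20 for complex I, -0.29 for complex II, -0.21 for complex III, -0.10 for complex IV and -0.11 for the ATP synthase. In 90 of 92 genes the change was negative, but all were read on the same arrays and these are not separate results. All 3 day 1 arrays lay below all 3 day 0 arrays in 62 of 92 genes, while this held for 18.4% of all genes.

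**Figure D1:**
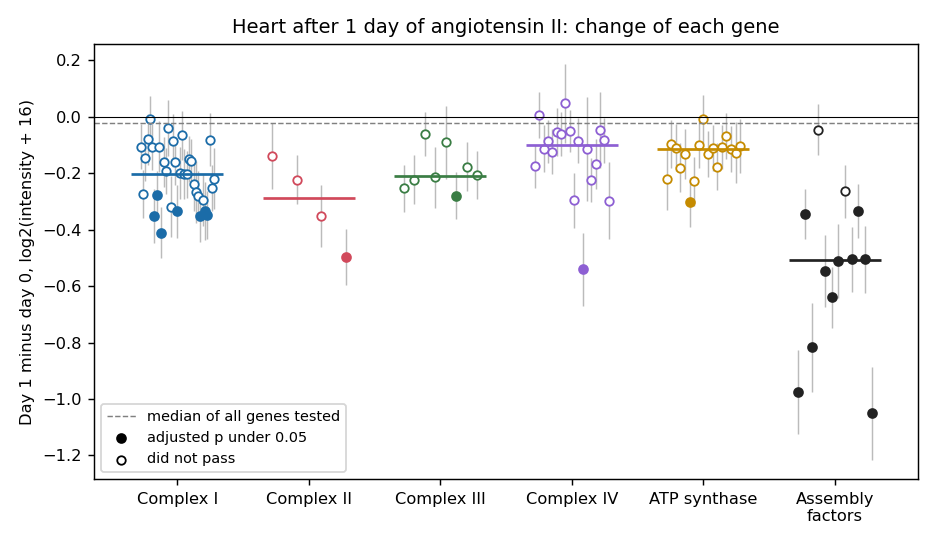
Each point is 1 gene, with its day 1 minus day 0 difference in heart on the log2(intensity + 16) scale on the vertical axis, grouped by complex; grey bars are the standard error, coloured lines the median of each group, and filled points have an adjusted p under 0.05. The assembly factors reach down to -1.05 for Sdhaf4, while the subunits other than Cox7a2l, at -0.54, lie between -0.50 and 0.05.

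Among the assembly factors of complex II, Sdhaf4, which protects the flavin-bearing subunit until it joins the complex, fell most. Its intensities were 2202, 2071 and 2119 at day 0, and 904, 813 and 1443 at day 1. They were 1862, 1993 and 1949 at day 3, and 2090, 2025 and 1752 at day 7. All day 1 arrays were low and day 3 and day 7 arrays stood near the day 0 level, with replicate 3 the highest of the day 1 arrays. The day 1 difference was -1.05 ± 0.16 (standard error; adjusted p = 0.00362 by limma, n = 3 against 3). Sdhaf3, Sdhaf1 and Sdhaf2, which help insert or keep the iron-sulfur clusters or the flavin of complex II, fell by 0.50, 0.50 and 0.33.

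Among the assembly factors of complex I, Ndufaf1, which builds the membrane arm, had intensities of 975, 935 and 811 at day 0 and of 362, 428 and 595 at day 1. The values were 759, 797 and 844 at day 3 and 829, 731 and 718 at day 7. Day 1 arrays lay below all others, and the difference from day 0 was -0.97 ± 0.15 (adjusted p = 0.00319 by limma). Ndufaf3, an early assembly factor, went from 1110, 1058 and 908 to 502, 481 and 779, a difference of -0.82 ± 0.16 (adjusted p = 0.0078). For Ndufaf6 the intensities were 614, 530 and 467 at day 0 and 335, 303 and 377 at day 1, a difference of -0.64 ± 0.11 (adjusted p = 0.00451). These groups did not overlap in either gene. Ndufaf5, Ndufaf7 and Ndufaf2 fell by 0.55, 0.51 and 0.34. Ndufaf8 changed by -0.26 (adjusted p = 0.0824) and Ndufaf4 by -0.05 (adjusted p = 0.81), and neither passed the test.

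**Figure D2:**
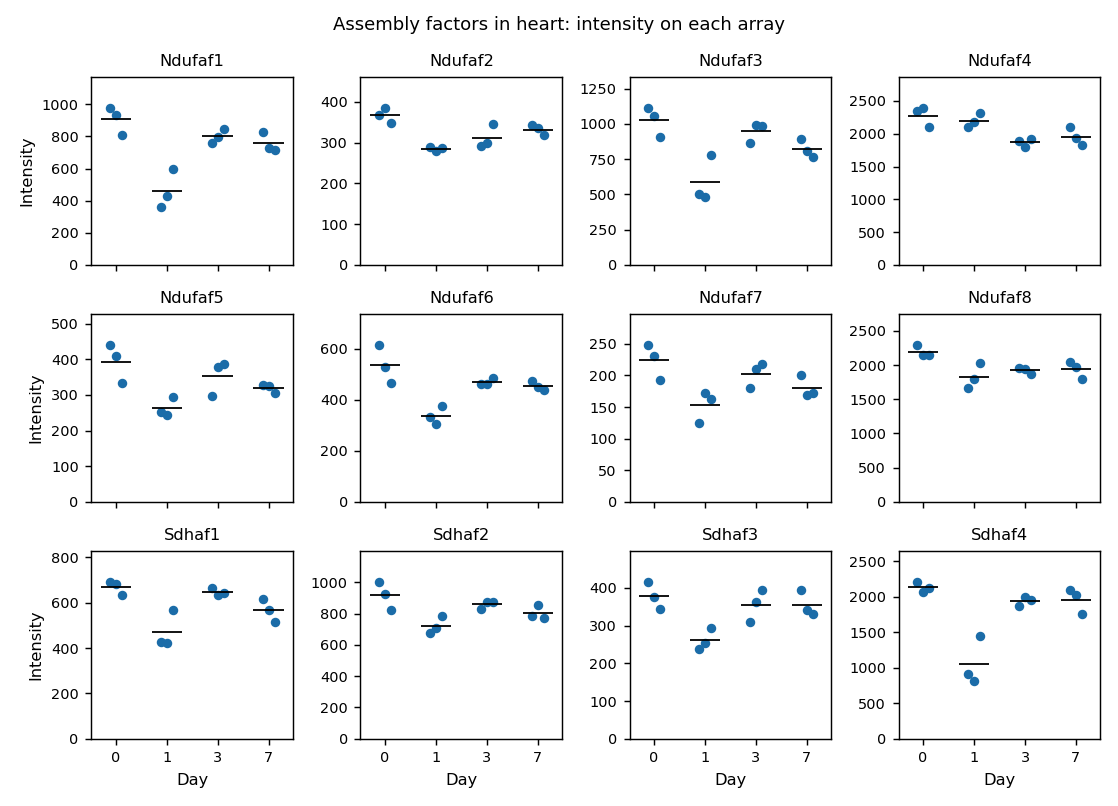
Intensity of each of the 12 assembly factors on the 12 heart arrays by day of angiotensin II, with 1 panel per gene, each with its own vertical axis from 0; points are arrays and lines are means of 3. In Sdhaf4, Ndufaf1 and Ndufaf3 the day 1 arrays lie low and the day 3 and day 7 arrays closer to day 0. In Ndufaf1 most of these later arrays still lie below all day 0 arrays. The 3 day 3 arrays of Ndufaf4 lie between 1793 and 1925, below day 0.

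Complex I subunits fell in 7 of 33 genes at day 1, where 8.57% of all genes did. The largest fall was in Ndufa8, an accessory subunit, from 7289, 7025 and 6759 to 5083, 4980 and 5816, a difference of -0.41 ± 0.09 (adjusted p = 0.0122 by limma). Every day 1 array lay below every day 0 array. Ndufs4, Ndufs7 and Ndufs8, of which the latter pair carry iron-sulfur clusters of the core, fell by 0.35, 0.33 and 0.35. The accessory subunits Ndufa5, Ndufb3 and Ndufa6 fell by 0.35, 0.33 and 0.28. Of 12 fits with an array left out, Ndufa8 passed in 9, Ndufs4 and Ndufs8 in 8 and Ndufa5 in 7. Ndufb3 passed in 5, and Ndufs7 and Ndufa6 in 3.

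In complex II, Sdhd, which anchors the complex in the membrane, had intensities of 4788, 4871 and 4793 at day 0 and 3321, 3061 and 3907 at day 1. The difference was -0.50 ± 0.10 (adjusted p = 0.00919 by limma), and the groups did not overlap. Sdha, Sdhb and Sdhc changed by -0.14, -0.22 and -0.35 without passing. In complex III, 1 of 8 genes fell, where 8.57% of all genes did. Uqcrfs1, the Rieske iron-sulfur protein, fell by 0.28 and passed in 3 of 12 fits with an array left out. Its intensities were 5222, 5018 and 4864 at day 0 and 4140, 4004 and 4289 at day 1.

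In complex IV, 1 of 18 genes fell, where 8.57% of all genes did. SCAF1, a supercomplex factor that links complex III to complex IV, is known to be shortened in C57BL/6 mice. Its gene, Cox7a2l, was the 1 that fell. Its intensities were 1871, 2192 and 2053 at day 0, 1366, 1168 and 1694 at day 1, 1840, 2185 and 2073 at day 3, and 1902, 2038 and 2164 at day 7. The day 1 arrays lay below all other heart arrays, with a difference from day 0 of -0.54 ± 0.13 (adjusted p = 0.0176 by limma). All 3 probe sets of this gene were lower at day 1, by 0.54, 0.63 and 0.65 on the log2 scale. The muscle forms Cox6a2, Cox7a1 and Cox8b changed by -0.05, -0.30 and -0.17 without passing, and the forms of most tissues, Cox6a1, Cox7a2 and Cox8a, by -0.12, -0.08 and -0.22, also without passing.

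In the ATP synthase, 1 of 17 genes fell, where 8.57% of all genes did. Atp5g1, one of the genes for the proton-carrying c subunit, fell by 0.30, from 10730, 10622 and 10090 to 8504, 8062 and 8916 (adjusted p = 0.0368 by limma). With the mean of its probe sets the change was -0.61, its dimmer probe set reading -0.92, and Atp5g1 passed in 4 of 12 fits with an array left out. The other genes for the same subunit, Atp5g2 and Atp5g3, changed by -0.23 (adjusted p = 0.0999) and -0.10 (adjusted p = 0.493).

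The members were read beside genes of like brightness, in classes chosen after the values had been seen. Among the 3289 genes with a mean of 8 to 10 on the log2 scale in heart, 15.4% fell at day 1, and in this class 8 of 8 assembly factors fell and 0 of 1 subunits. Among 1090 genes at 10 to 12, 18.6% fell, with 1 of 3 assembly factors and 2 of 7 subunits. Above 12, 12.1% of 264 genes fell and 9 of 67 subunits, a share close to that of the class. Subunits make up 67 of the 264 genes in that class, and their median change was -0.16 beside -0.085 for the class. At 10 to 12 the median was -0.29 for the 7 subunits and -0.26 for the 3 assembly factors, beside -0.082, and at 8 to 10 it was -0.53 for the 8 assembly factors, beside -0.048. Of the 9 genes that passed and had several probe sets, 7 had a lower mean at day 1 in every probe set, and the exceptions were Ndufs4 and Sdhaf3.

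The count rested on single arrays. Without day 1 replicate 1 it was 4 genes, all of them assembly factors, and without day 0 replicate 1, day 0 replicate 2 or day 1 replicate 2 it was 6 each time. Without day 1 replicate 3 it was 34. Only Ndufaf1, Ndufaf3, Ndufaf6 and Sdhaf4 passed in each of the 12 fits with a heart array left out. With the 6 arrays of the groups compared alone it was 7.

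The 3 day 1 arrays differed in the size of the fall. The median deviation of the assembly factors from the day 0 mean was -0.63, -0.60 and -0.36 in replicates 1, 2 and 3, and that of the subunits -0.20, -0.21 and -0.09. Replicate 3 had the smallest deviation in both. Markers of other cells moved alongside. Of the 5 neutrophil markers tested 3 rose, and their summed intensity was 222 to 1235 at day 0 and 1428 to 6891 at day 1. Of the 10 macrophage markers 3 rose, with sums of 8538 to 11083 and of 10709 to 15578. The median deviations of the neutrophil markers were 2.18, 3.23 and 0.36 in the 3 day 1 arrays, the smallest again in replicate 3. Of the 10 cardiomyocyte markers 0 passed, with sums of 128561 to 132549 at day 0 and of 115391 to 131877 at day 1. The part of these cells in the result was not tested.

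**Figure D3:**
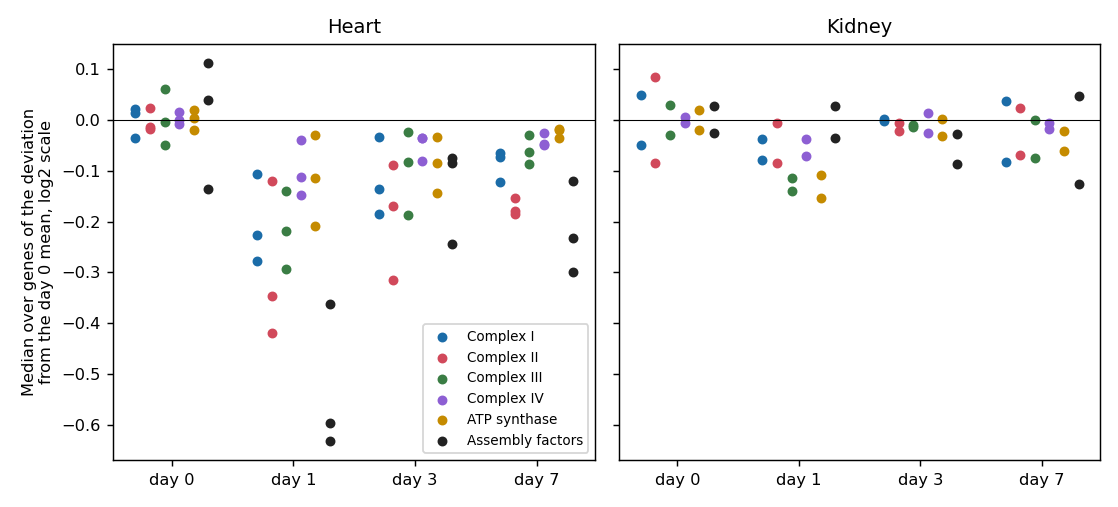
Median over genes of the deviation of each array from the day 0 mean of its tissue, on the log2 scale, by day and by complex, in heart (left, 3 arrays a day) and kidney (right, 2 arrays a day); each point is 1 array. In heart the assembly factors at day 1 lie at -0.63, -0.60 and -0.36, and all kidney points lie between -0.15 and 0.08.

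Other genes of the pathway fell on the same day. Of all genes tested, 8.57% fell and 4.86% rose. Of 33 tested assembly factors with other symbols, 20 fell and 1 rose, with a median change of -0.39 beside -0.02 for all genes. Among those that fell were Bcs1l, which inserts the Rieske protein into complex III (-0.68 ± 0.12), Tmem70, needed for the ATP synthase (-0.52 ± 0.10), and Coa3, a factor of complex IV (-0.51 ± 0.09). Cox19, a copper factor of complex IV, was the 1 that rose (0.43 ± 0.12). Of 15 genes for electron carriers and for coenzyme Q synthesis, 7 fell (median -0.36), among them Coq9 (-0.70 ± 0.13). Of 16 genes of pyruvate dehydrogenase and the citric acid cycle, 7 fell (median -0.27), among them Pdhx and Pdhb (-0.62 ± 0.13 and -0.55 ± 0.11). Of 11 mitochondrial carriers and energy transfer genes 2 fell, a share within the 12.1% to 18.6% of the brightness classes over 8. Of 2 uncoupling protein genes 0 changed.

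Of 22 regulators of the respiratory chain, 8 fell and 1 rose, with a median of -0.27, where 8.57% of all genes fell and 4.86% rose. Ppargc1a, the coactivator PGC-1 alpha, had intensities of 2278, 2687 and 2290 at day 0 and of 906, 829 and 1370 at day 1. The difference was -1.24 ± 0.17 (adjusted p = 0.0019 by limma), with no overlap. The values were 1776, 1466 and 1677 at day 3 and 1753, 1847 and 2291 at day 7. Ppara, a receptor for fatty acids, fell by 1.15, Sirt3, a mitochondrial deacetylase, by 0.96, Esrra, which binds the estrogen-related receptor site, by 0.51, and Tfam, which acts on mitochondrial DNA, by 0.41. With the mean of all probe sets Esrra changed by -0.27 (adjusted p = 0.0968) and Tfam by -0.26 (adjusted p = 0.0794), and with single arrays left out they passed in 9 and 8 of 12 fits. Nrf1, whose short motif was counted above, changed by 0.09 (adjusted p = 0.614) and Ppargc1b by -0.12 (adjusted p = 0.709). Pprc1, a relative of PGC-1, rose by 0.84.

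At days 3 and 7 none of the 92 genes passed the test against day 0. Over all genes limma with Benjamini-Hochberg adjustment called 12 genes at day 3 (0.0855%; 0.0712% higher and 0.0142% lower) and 7 at day 7 (0.0499%; 0.0427% higher and 0.00712% lower), and 1681 and 1247 genes had an unadjusted p under 0.05. The median change of the assembly factors was -0.14 at day 3 and -0.22 at day 7, and that of the subunits -0.10 and -0.06. At day 3 the change was negative in 86 of 92 genes, again on shared arrays and not as separate results. In 34 of 92 all day 3 arrays lay below day 0, beside 10.4% of all genes, and in 2 above, beside 7.4%. At day 7 these were 30 of 92, beside 11.9%, and 7, beside 9.28%. The gene with the smallest p at day 3 was Ndufaf4, an assembly factor of complex I, with 2340, 2387 and 2097 at day 0 and 1889, 1793 and 1925 at day 3, a difference of -0.28 ± 0.09 (adjusted p = 0.257). Its groups did not overlap, and unlike most of its kind it had been near the day 0 level at day 1. Ndufs8 differed by -0.23 ± 0.08 at day 3 (adjusted p = 0.312), and Ndufaf4 by -0.22 ± 0.09 at day 7 (adjusted p = 0.526). Fibroblast and matrix markers summed to 13598 to 20352 at day 0, 21509 to 37623 at day 3 and 23049 to 26422 at day 7. Macrophage markers summed to 8538 to 11083, 11241 to 17029 and 10054 to 15220 on these days. The part of these cells in the values of days 3 and 7 was not tested.

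Set against day 1, 8 genes were higher at day 3 and none lower, where 2.83% of all genes were higher and 1.47% lower, or 4.3% in either direction. All day 3 arrays lay above all day 1 arrays in 21 of 92 genes, beside 11.4% of all genes, and below in 1, beside 7.13%. Of the 12 assembly factors 10 lay above, and the 1 below was Ndufaf4. The genes that passed were Cox7a2l, Cox8a, Sdhd and the assembly factors Sdhaf4, Ndufaf1, Ndufaf3, Ndufaf6 and Sdhaf1. Sdhaf4 rose by 0.91 ± 0.16 (adjusted p = 0.0163 by limma) and Ndufaf1 by 0.80 ± 0.15 (adjusted p = 0.0163). Cox8a, a complex IV subunit that had not passed against day 0, had 1868, 1907 and 1927 at day 1 and 2480, 2427 and 2357 at day 3, a rise of 0.35 ± 0.08 (adjusted p = 0.0288). With the mean of its probe sets this was 0.23 (adjusted p = 0.0883). Its day 3 arrays also lay above its day 0 arrays of 2234, 2247 and 2186. This comparison shares the day 1 arrays with that of day 1 against day 0. The count of 8 became 0 when replicate 1 or 2 of day 1 or replicate 2 of day 3 was left out, 3 when replicate 3 of day 3 was, and 5 when replicate 2 of day 0 or any of the 3 day 7 arrays was. With the 6 arrays compared alone it was 0.

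Day 7 against day 1 gave 4 genes higher, Cox7a2l, Ndufaf1, Ndufaf6 and Sdhaf4, and 1 lower, where 2.8% of all genes were higher and 2.12% lower, or 4.92% in either direction. All day 7 arrays lay above all day 1 arrays in 44 of 92 genes, beside 14.7%. The gene that was lower was Cox6b2, a complex IV subunit known from testis. It had 84, 73 and 79 at day 0, 82, 65 and 101 at day 1, 58, 56 and 79 at day 3 and 52, 45 and 42 at day 7. Its day 7 arrays were the lowest of the heart arrays, at a dim signal, with a difference from day 1 of -0.65 ± 0.14 (adjusted p = 0.0262 by limma) and from day 0 of -0.60 ± 0.14 (adjusted p = 0.248). With an added value of 64 the difference from day 1 was -0.40. The count of 5 genes became 0 when replicate 1 of day 1 or replicate 1 or 2 of day 7 was left out, 1 when replicate 2 of day 1 or replicate 3 of day 7 was, 3 when replicate 2 of day 3 was and 13 when replicate 3 of day 1 was. With the groups compared alone it was 0.

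Tested jointly over days 1, 3 and 7 (limma F test, Benjamini-Hochberg adjustment), 9 genes changed in heart, beside 6.55% of all genes. They were Ndufa8, Sdhd, Cox6b2 and Cox7a2l among the subunits and Ndufaf1, Ndufaf3, Ndufaf6, Sdhaf1 and Sdhaf4 among the assembly factors. The count became 0 when replicate 1 of day 1 was left out, 2 when replicate 1 or 2 of day 0 or replicate 2 of day 1 was, and 3 when replicate 2 of day 3 or of day 7 was. It became 5 when replicate 1 or 3 of day 7 was left out and 17 when replicate 3 of day 1 was.

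In kidney, 1 of 92 genes passed at day 1. Cox6b2 rose from 94 and 90 to 212 and 172, a difference of 0.93 ± 0.13 (adjusted p = 0.0476 by limma, n = 2 against 2), while 0.26% of all genes rose and 0.239% fell. Its day 3 values were 101 and 127 and its day 7 values 116 and 105, so the day 1 arrays were the highest of this tissue, at a dim signal. The call was lost without either day 0 array, either day 1 array or either day 7 array, and 2 genes passed without day 3 replicate 1 or day 3 replicate 2. The median change at day 1 was -0.08 for the subunits and 0.01 for the assembly factors. Both day 1 arrays lay below both day 0 arrays in 47 of 92 genes, where this held for 22.7% of all genes, and above them in 12, beside 26.2%. At days 3 and 7 limma with Benjamini-Hochberg adjustment called 0 of 92 genes and 0 genes over the array, with 1202 and 950 genes at an unadjusted p under 0.05. At day 3 both arrays lay above day 0 in 7 of 92 genes, beside 20.4% of all genes, and below in 22, beside 16.3%. At day 7 they lay above in 2, beside 21.2%, and below in 27, beside 15.3%. The smallest p belonged to Cox7c, a small complex IV subunit read here by a dim probe set (0.46 ± 0.09, adjusted p = 0.396) at day 3, and to Uqcrc1 (-0.36 ± 0.10, adjusted p = 0.693) at day 7. Without day 3 replicate 1, 2 of the 92 genes passed at day 3.

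Cox8b, the muscle and brown fat form of a complex IV subunit, varied widely in kidney. Its intensities were 27 and 33 at day 0, 486 and 515 at day 1, 35 and 1472 at day 3, and 20 and 27 at day 7. Both day 1 arrays and day 3 replicate 2 were high, and the day 1 difference of 3.49 ± 1.29 did not pass (adjusted p = 0.256 by limma). Fat markers moved with it. The brown fat gene Ucp1 read 34 and 43 at day 0, 1420 and 1026 at day 1, 37 and 3298 at day 3, and 33 and 24 at day 7. All 4 brown fat markers on the array summed to 202 to 273 at day 0, 2000.0 to 2444 at day 1, 256 to 5476 at day 3 and 220 to 267 at day 7. White fat markers summed to 1870 to 2090 at day 0, 12224 to 14007 at day 1 and 1935 to 21321 at day 3. Day 0 replicate 2 and day 3 replicate 2 also held adrenal markers, with sums of 4345 and 7781 against 217 to 248 on the other 6 kidney arrays. The part of these tissues in the kidney values was not tested. Cox7a1, another muscle and fat form, read 626 on day 3 replicate 2 and 239 to 327 on the other kidney arrays.

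In brain, 0 of 93 genes passed at day 3 or day 7, and limma with Benjamini-Hochberg adjustment called 0 genes over the array, with 1041 and 1006 genes at an unadjusted p under 0.05. The median change of the subunits was -0.06 and -0.05. Cox6b2 had the smallest p at both times, with 119 and 84 at day 0, 39 and 64 at day 3 and 67 and 45 at day 7. Its difference was -0.81 ± 0.27 at day 3 (adjusted p = 0.662) and -0.71 ± 0.27 at day 7 (adjusted p = 0.666). Between the day 0 brain arrays the subunits differed by a median of 0.11 either side of their mean, which was larger than either change. Neutrophil markers summed to 777 and 7404 on the day 0 brain arrays and to 296 to 676 on the later ones. Kidney markers differed too. Those of the proximal tubule summed to 319 and 5439 at day 0, 330 to 438 at day 3 and 422 to 2954 at day 7. Those of the distal nephron summed to 8673 and 17786, 3402 to 5840 and 4423 to 9735 on these days. The part of the neutrophil and kidney markers in the brain values was not tested.

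The responses of heart and kidney at day 1 were compared in a joint fit of heart, kidney and brain. In 5 of 92 genes the heart response was lower than that of kidney, and in none higher, where 2.51% of all genes were lower and 0.958% higher. They were Sdhaf4, Ndufaf3, Cox7a2l, Ndufaf6 and Sdhaf1. Cox7a2l, which fell in heart, read 1056 and 1190 at day 0 and 1511 and 1373 at day 1 in kidney (0.36 ± 0.10, adjusted p = 0.156 in kidney alone), and the difference of responses was -0.90 ± 0.18 (adjusted p = 0.0124 by limma). Sdhaf4 in kidney read 1096 and 963 at day 0 and 1043 and 1005 at day 1, groups that overlap, and the difference of responses was -1.05 ± 0.22 (adjusted p = 0.0153). For Ndufaf1 the difference of -0.75 ± 0.21 did not pass (adjusted p = 0.0532). The count of 5 was 1 without kidney day 0 replicate 2 or kidney day 1 replicate 2, 2 without kidney day 1 replicate 1, 3 without kidney day 0 replicate 1 or any of heart day 0 replicates 1 and 2 and heart day 1 replicates 1 and 2, and 14 without heart day 1 replicate 3. With the groups compared alone it was 1.

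More of these genes passed between tissues at day 0 than between any days within a tissue. In 59 of the 94 genes the mean over all arrays of a tissue, treated days included, was highest in heart, then vessel, kidney and brain. This order was not counted over all genes. The vessel arrays held brown fat markers, whose part in it was not tested. At day 0, 78 of 92 genes were higher in heart than in kidney and 2 lower, where 28.6% of all genes were higher and 27.2% lower (limma joint fit, n = 3 against 2). Day 0 replicate 2 of kidney held adrenal markers, as given with the kidney results. Their part in the differences of kidney from heart or brain was not tested. The median difference was 0.77 for complex I, 0.65 for complex II, 0.57 for complex III, 0.38 for complex IV, 0.48 for the ATP synthase and 0.80 for the assembly factors. The largest in complex I was Ndufb10, a subunit of the membrane arm, with 6512, 6161 and 6258 in heart and 2502 and 2133 in kidney (1.44 ± 0.13, adjusted p = 1.07e-08). The next were Ndufa5 (1.39 ± 0.10), Ndufa8 (1.32 ± 0.11) and Ndufs4 (1.24 ± 0.11, or 0.60 with the mean of its probe sets). In complex III they were Uqcrc1 (0.84 ± 0.13) and Uqcr11 (0.81 ± 0.08), and in the ATP synthase, beside its c subunit, Atp5o of the peripheral stalk (1.07 ± 0.14). Among the assembly factors Sdhaf4 (1.04 ± 0.16), Ndufaf5 (1.01 ± 0.14) and Ndufaf1 (1.00 ± 0.15) differed most. Sdhc, a membrane anchor of complex II, was close in both, with 1570, 1651 and 1561 in heart and 1496 and 1357 in kidney (0.16 ± 0.13, adjusted p = 0.306).

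Heart against brain at day 0 gave 87 of 93 genes higher and 3 lower, where 37.7% of all genes were higher and 35.1% lower. The day 0 brain arrays differed in neutrophil and kidney markers, as given with the brain results, and their part in these differences was not tested. Those lower were Cox6a1, Cox8a and the dim Cox7b2, whose sign turned without brain day 0 replicate 1 (0.049 against -0.54). Cox7b2 passed the filter on low signals in brain and not in heart or kidney. It thus entered both comparisons with brain through the tissue where it read highest, and its calls as lower carry no weight. Over all days it read 17 to 60 in brain, 15 to 22 in heart and 11 to 16 in kidney. The medians were 1.14, 1.66, 1.39, 0.51 and 0.83 for complexes I to V and 0.72 for the assembly factors. Sdhd read 4788 to 4871 in heart and 1550 and 1161 in brain, a difference of 1.83 ± 0.13 (adjusted p = 2.04e-10 by limma). Sdhb, which carries the iron-sulfur clusters of complex II, read 11233, 10650 and 10098 in heart and 3478 and 2984 in brain (1.72 ± 0.09). In complex III the Rieske protein Uqcrfs1 differed most (1.77 ± 0.11), in complex I Ndufa9 (1.83 ± 0.10) and among the assembly factors Ndufaf4 (1.86 ± 0.11). Kidney was higher than brain in 63 of 93 genes and lower in 3, beside 33.7% and 32.3% of all genes, of which Cox7b2, Ndufaf5 and Sdhaf3 were the 3 lower, with medians of 0.40, 1.12, 0.74, 0.25 and 0.49 for complexes I to V and 0.19 for the assembly factors. In complex II the anchors and the iron-sulfur subunit were higher in kidney, Sdhc by 1.44 ± 0.14, Sdhd by 1.21 ± 0.14 and Sdhb by 1.02 ± 0.10, while Sdha differed by 0.15 ± 0.14 (adjusted p = 0.365). With the groups compared alone the count of 66 for kidney against brain was 33. The assembly factors split in this pair: Ndufaf6 was higher in kidney (1.29 ± 0.13) and Ndufaf5 lower (-0.92 ± 0.16, adjusted p = 3.9e-05), with 193 and 181 in kidney and 397 and 341 in brain.

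Isoforms of complex IV subunits set the tissues apart. Each gene is read across tissues here, since probe sets of different genes cannot be set against each other. Cox6a2, the muscle form, read 10109, 10589 and 10355 in untreated heart, 125 and 128 in kidney and 42 and 136 in brain. Over all days it lay between 8978 and 10589 in heart and between 90 and 128 in kidney, with no overlap, and the day 0 difference was 6.18 ± 0.23 (adjusted p = 1.72e-14 by limma). Cox6a1, the form of most tissues, ran the other way, with 9733, 9667 and 9166 in heart, 19205 and 19690 in kidney and 17885 and 17900 in brain. Its heart minus kidney difference was -1.03 ± 0.07 (adjusted p = 8.7e-11).

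Cox8b and Cox8a made a like pair. Cox8b read 9961, 9534 and 9597 in untreated heart and 62 and 39 in brain, and Cox8a 2234, 2247 and 2186 in heart, 4936 and 4431 in kidney and 4041 and 4682 in brain. Cox8a was thus lower in heart than in kidney (-1.07 ± 0.08, adjusted p = 3.71e-10 by limma; -0.67 with the mean of its probe sets). Cox7a1, the muscle form, read 7849, 8196 and 7268 in heart, 327 and 304 in kidney and 120 and 70 in brain. Its counterpart Cox7a2 was not lower in heart: it read 13841 to 13998 there, 12405 and 12282 in kidney, and 10567 and 10215 in brain, with a heart minus kidney difference of 0.17 ± 0.07 (adjusted p = 0.0377), which did not pass in 5 of 26 fits with an array left out. Cox4i2, the lung form of subunit 4, lay between 22 and 42 on all heart, kidney, brain and vessel arrays.

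**Figure D4:**
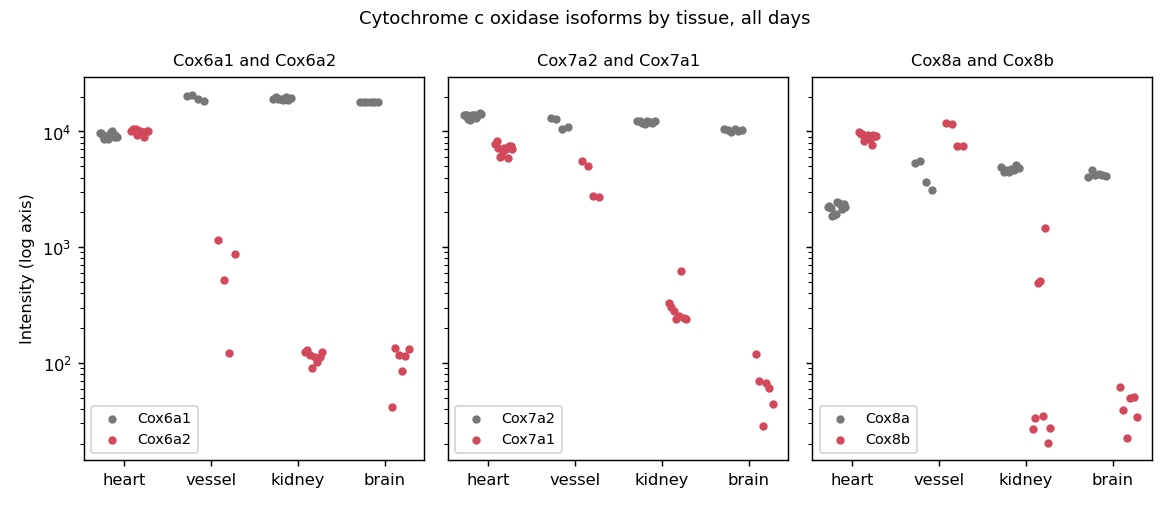
Intensity on a log axis of the common form (grey) and the muscle form (red) of 3 complex IV subunits, with 1 point per array, by tissue and over all days (heart 12, vessel 4, kidney 8, brain 6 arrays). Cox6a1 and Cox8a lie lowest in heart; the 3 high kidney points of Cox8b are 486, 515 and 1472. The vertical distance between genes depends on their probe sets and is not a difference of level.

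The c subunit of the ATP synthase is encoded by several genes that give the same mature protein. Atp5g1 read 10730, 10622 and 10090 in untreated heart, 3724 and 3012 in kidney, 2166 and 1538 in brain and 827 in vessel. The heart was above kidney by 1.64 ± 0.13 and above brain by 2.51 ± 0.13, or by 1.10 with the mean of its probe sets. Atp5g3 differed much less, with 13597, 14123 and 14106 in heart, 12196 and 12177 in kidney and 9844 and 8833 in brain. Its heart minus kidney difference was 0.19 ± 0.07 (adjusted p = 0.0349 by limma), and it did not pass in 4 of 26 fits with an array left out.

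Vessel had a single array a day, so its differences have no replicate check and no test. The array of day 1 stood near that of day 0, with a median change of 0.05 over 92 genes. At days 3 and 7 the genes were lower together, with a median of -0.46 at both. At day 3, 23 of 92 genes were over 1.5-fold lower and 0 higher, where 5.13% of all genes were lower and 10.6% higher. At day 7, 30 were lower and 0 higher, where 5.93% were lower and 10.9% higher, and at day 1 it was 1 lower, Cox6a2, beside 3.24%. The medians at day 7 were -0.59, -0.58, -0.51, -0.32 and -0.34 for complexes I to V and -0.49 for the assembly factors.

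Single genes in vessel show the same shape. Uqcrc1, a core subunit of complex III, read 6599, 6982, 3997 and 4694 on days 0, 1, 3 and 7. Sdhd read 4310, 4618, 3002 and 2207, and Ndufa8 read 4279, 3996, 2756 and 2214. Sdhaf4 and Ndufaf3, which fell in heart at day 1, were higher on the day 1 vessel array by 0.50 and 0.53 on the log2 scale and lower at day 7 by 0.64 and 0.77. Atp5g1 read 827, 558, 607 and 837, with no such course.

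Other tissue in the vessel samples moved on the same days. The brown fat gene Ucp1 read 22424, 21637, 19400 and 11558 on days 0, 1, 3 and 7, and the median change of the 4 brown fat markers was -0.18, -0.63 and -0.86. Macrophage markers had median changes of 0.61, 2.14 and 1.28 over 10 genes, with sums of 5219, 6475, 18308 and 11626. Fibroblast and matrix markers changed by -0.75, 1.16 and 0.98 over 8 genes. Cardiomyocyte markers were present too, with sums of 17948, 9408, 2058 and 16892. Cox6a2, the muscle form, read 1160, 523, 121 and 882, low on the same array. Neuron markers summed to 103, 122, 1433 and 180 over 5 genes and oligodendrocyte markers to 158, 271, 558 and 188 over 3 genes. On the day 3 array Snap25, Syt1 and Mbp were higher by 4.89, 3.92 and 2.12. Rbfox3, Slc17a7 and Mobp, of the same lists, changed by only 0.38, 0.14 and 0.07. Astrocyte markers summed to 447, 684, 627 and 868 over 4 genes and were highest at day 7. The part of these tissues in the lower values was not tested.

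**Figure D5:**
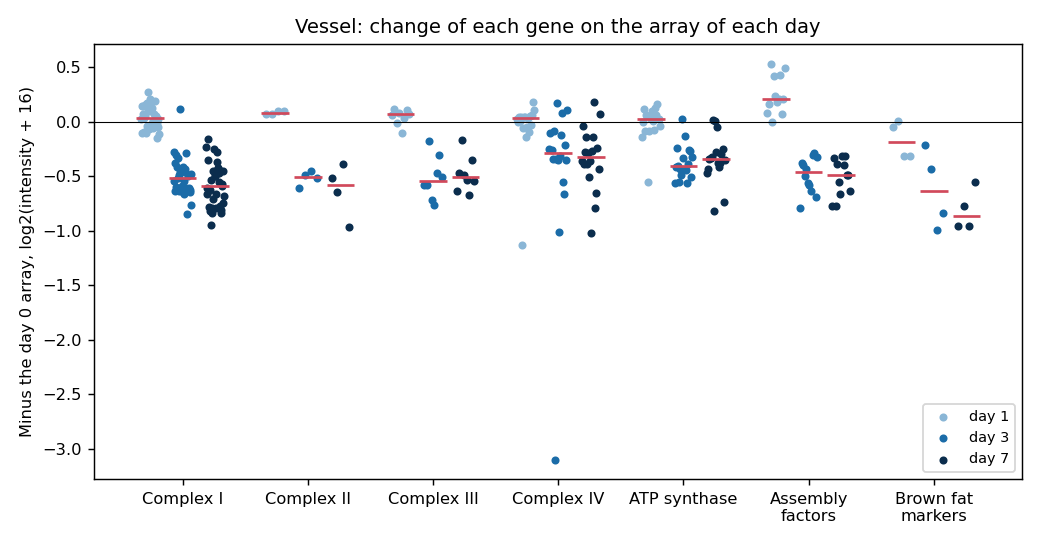
Difference of each gene from the single day 0 vessel array on the log2(intensity + 16) scale, by complex, with the 4 brown fat markers on the right; point colours are days and red lines are medians. At days 3 and 7 the medians of complexes I to V and of the assembly factors lie between -0.29 and -0.59, and those of the brown fat markers at -0.63 and -0.86; the lowest point is Cox6a2 at day 3, -3.10.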

How the data were processed

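The deposited values are linear intensities, 1 per probe set and array. The submitters' processing notes name Affymetrix Expression Console as the authors' software, with method and version not given in the sources used here. Array medians were alike, so values were used without further scaling. Of 45101 probe sets, 34945 with exactly 1 symbol in GEO's platform annotation were used, and 64 control probe sets were dropped. All 94 symbols matched RefSeq by Entrez identifier.

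Values were analysed as log2(intensity + 16), which understates changes of dim genes. The filter on low signals kept genes above the 40th percentile of an array in enough arrays to fill the smallest group of that tissue. A group-means model was fitted for each replicated tissue with limma 3.58.1 in R 4.3.3. Tissue differences and differences of response came from a joint fit of these tissues. P-values were adjusted by Benjamini-Hochberg over all tested genes, with a threshold of 0.05. The titles call the arrays biological replicates without naming the mice, and p-values measure only the spread between these samples. The number of arrays limits precision. Vessel was described without tests.

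Genes named were up to 4 members per complex past the threshold, by size, or the 2 smallest p where none passed, with the isoform genes and a few regulators. The other complex I subunits and assembly factors that are named for heart at day 1, the vessel genes, and the examples from other pathway lists were chosen after their values were seen. The members and lists were chosen with earlier results of these data known. Alternatives varied the filter (none), the normalization (quantile), the probe sets (their mean), the variance model (trended and robust), the value added before the log (1 or 64) and the arrays fitted (joint, only those compared, or 1 left out at a time), and added the replicate number as a block. The code was tested on simulated data. Python 3.11.15 with matplotlib 3.10.9, numpy 2.4.6 and pandas 2.3.3 handled tables, sequences and plots.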

Additional observations from a re-analysis of the deposited data

Results flagged for a closer look

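In 5 genes the response at day 1 differed between heart and kidney by the test of the difference itself (limma joint fit, Benjamini-Hochberg adjustment). Heart minus kidney was -1.05 ± 0.22 for Sdhaf4 (adjusted p = 0.0153), -1.01 ± 0.21 for Ndufaf3 (adjusted p = 0.0153), -0.90 ± 0.18 for Cox7a2l (adjusted p = 0.0124), -0.67 ± 0.16 for Ndufaf6 (adjusted p = 0.0299) and -0.56 ± 0.15 for Sdhaf1 (adjusted p = 0.0499). In each, all 3 heart arrays of day 1 lay below those of day 0. The kidney arrays of day 1 held fat markers, and day 0 replicate 2 of kidney held adrenal markers, whose part was not tested. No group of heart, kidney, brain or vessel has 4 or more arrays, so single arrays were not tested as outliers.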

How the results depend on the processing

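The heart day 1 count of 21 genes was 34 with an added value of 64, 37 with trended and robust variances and 7 with the groups compared alone. The labels do not say whether replicate numbers pair the arrays. Same-numbered heart arrays deviated with correlations of -0.33 to 0.15 (median -0.10), kidney arrays -0.09 to 0.24 (median 0.15) and brain arrays -0.64 to 0.48 (median -0.59). Arrays of different numbers had medians of 0.04, -0.15 and 0.59. With 2 arrays a group, in kidney and brain, these values mirror each other, so the check cannot decide on pairing there. With the replicate block the counts were 12 for heart day 1, 4 for the F test, 3 for day 3 against day 1, 3 for heart minus kidney and 0 for kidney day 1. With the groups compared alone, day 3 against day 1 and day 7 against day 1 gave 0, day 7 against day 0 gave 1, heart minus kidney 1 and kidney against brain 33. Day 7 against day 1 gave 9 with trended variances and 8 in the joint fit, which gave 3 for kidney day 1 and 1 for brain day 3. Kidney day 1 gave 0 with no filter and with an added value of 1. Leaving out single arrays gave 4 to 34 genes for heart day 1, 0 to 17 for the F test, 0 to 12 for day 3 against day 1, 0 to 13 for day 7 against day 1, 1 to 14 for heart minus kidney, 0 to 2 for kidney day 1 and kidney day 3, 73 to 82 for heart against kidney, 88 to 90 for heart against brain, 49 to 66 for kidney against brain and 0 for brain. The heart day 1 median of complex V was -0.11 and ranged from -0.17 to -0.074 when single arrays were left out; the other heart medians by complex at days 1, 3 and 7 moved by less than the spread between arrays, and medians of other tissues were not recomputed. Signs reversed for Atp5g1 in kidney against brain (-0.22 with the mean of probe sets), Cox7b2 in heart against brain (-1.14 to 0.049 as single arrays were left out) and Cox6a2 in kidney against brain (-0.087 to 1.31). The causes were not tested. A group reduced to 1 array took its spread from the other groups of the fit.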
